A study of Homo sapiens with 18 samples.

Results

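The 10 genes described here are core components of Notch signaling: the receptors NOTCH1, NOTCH2, NOTCH3 and NOTCH4, the ligands JAG1, JAG2 and DLL1, and the target genes HES1, HEY1 and NRARP. They were taken by symbol from a table of 40266 gene symbols, and all 10 were found. All 10 also passed the filter for testing, which asked for at least 1 TPM (the unit of the table, a level scaled to library size and corrected for transcript length) in at least 3 libraries and left 16093 genes. The RNA came from 2 human cell lines of pancreatic ductal adenocarcinoma (PDAC), neither of them treated. Panc1 derives from a primary tumor and served as the mesenchymal-like model, and Panc89 derives from a lymph node metastasis and served as the epithelial model. Each line was sequenced as parental cells, as Holoclone cells and as Paraclone cells, with 3 libraries in each of the 6 groups. Holoclone cells, taken as the cancer stem cell (CSC) population, and Paraclone cells, taken as the non-CSC population, were each expanded from a single cell chosen for the shape of its colony. Each Holoclone or Paraclone group is therefore 1 clone, sampled at 3 passages, and a difference between clone and clone type cannot be told apart.

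Notch signaling passes between touching cells. A ligand of the Jagged or Delta type on one cell binds a Notch receptor on its neighbor, the receptor is cut by an ADAM protease and then by gamma-secretase, and the freed intracellular domain joins the DNA-binding protein RBPJ in the nucleus to switch on target genes. HES1 and HEY1 encode transcriptional repressors, and NRARP encodes an inhibitor that dampens the pathway in return. In the pancreas, Notch signaling holds progenitor cells in an undifferentiated state during development and is known to become active again in PDAC.

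The labelled cell types were checked with marker lists. The summed level of 8 mesenchymal markers lay between 2053 and 5181 TPM in Panc1 libraries and between 13.8 and 44.6 TPM in Panc89 libraries. Most of the Panc1 sum was VIM, at 2021 to 5044 TPM, against at most 0.46 TPM in Panc89. In parental Panc1 cells SPARC added 608 to 1072 TPM. Its mean was 888 TPM there, 2.36 TPM in Panc1 Holoclone and 68.6 TPM in Panc1 Paraclone cells. The mesenchymal markers SNAI2 (7.81 to 27.3 against at most 0.17 TPM) and FN1 (0.99 to 23.8 against at most 0.70 TPM) were instead higher in Panc89 than in Panc1 libraries. All 11 epithelial markers reached 1 TPM in every Panc89 library, against 7 of the 11 in each Panc1 group, with ESRP2 among the 7 in parental and Holoclone cells and CDH1 in its place in Paraclone cells. Of 8 endothelial markers, PECAM1 stood at 53.2 to 64.7 TPM in parental Panc89 cells and at most 6.90 TPM in any other group. CDH5 stood at 1.99 to 5.07 TPM in parental Panc89 cells and reached 1.91 TPM in Panc89 Paraclone cells. CLDN5 reached 3.76 TPM in Panc89 Paraclone cells and TIE1 1.40 TPM in Panc1 Paraclone cells. The other endothelial markers, VWF, KDR, TEK and ERG, stayed below 1 TPM in every library. Of the stem cell markers of the study, NES stood at 91.3 to 152 TPM in parental Panc1, 21.8 to 31.3 TPM in Holoclone and 4.04 to 8.00 TPM in Paraclone libraries. SOX2 reached at least 17.3 TPM in parental and Holoclone libraries of Panc89 and at most 0.98 TPM in its Paraclone libraries. OVOL2 stood at 7.20 to 9.43 TPM in parental, 1.99 to 2.90 TPM in Holoclone and 11.9 to 12.5 TPM in Paraclone libraries of Panc89, and at most 0.86 TPM in Panc1. Summed leukocyte markers reached at most 6.82 TPM and summed fibroblast or pericyte markers at most 8.93 TPM. Among the 3 libraries of parental Panc1 cells, replicates 1 and 2 lay far below replicate 3 in HES1, as described with that gene. Read counts were not used here, depth per library is unknown, and errors below cover the spread between libraries only.

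First, it was asked how the parental lines differ. All 10 genes differed between parental Panc89 and parental Panc1 cells (limma-trend on log2(TPM + 1), adjusted p under 0.05 over all genes tested), 8 of them higher in Panc89 and 2, NOTCH2 and NOTCH4, lower. Of all genes tested, 66.0% passed in this comparison, so a call by itself was common. By direction, 27.5% of all genes were called higher and 38.5% lower in Panc89. The median log2 difference of the 10 genes was 1.81, beside -0.18 for all genes tested. Because bulk RNA was measured, fewer cells with a transcript and less of it per cell cannot be told apart.

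Second, Holoclone cells were compared with Paraclone cells of the same line. In Panc1, 4 of the 10 genes were called (37.3% of all genes were, 27.4% higher and 9.97% lower in Holoclone cells), with NOTCH4, JAG2 and DLL1 higher and JAG1 lower in Holoclone cells. In Panc89, 6 of the 10 were called (35.7% of all genes were, 22.4% higher and 13.3% lower), with NOTCH1, JAG1, JAG2, DLL1 and HEY1 higher and NOTCH3 lower in Holoclone cells. The change itself differed between the lines for 4 genes, namely JAG1, HEY1, NOTCH1 and DLL1, all 4 toward Panc89 Holoclone cells, where 35.1% of all genes were called and 14.8% in that direction. Median differences of the 10 genes were 0.02 in Panc1 (all genes 0.19) and 0.74 in Panc89 (all genes 0.09), on the log2 scale.

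Next, the clone lines were set beside their parental cells. In Panc1, Holoclone cells differed from parental cells in 0 of the 10 genes (10.9% of all genes were called with limma-trend), and 2 genes, HES1 and HEY1, had an unadjusted p under 0.05. No other tool was run, since the values are not counts. Panc1 Paraclone cells differed from parental cells in 6 of the 10 (28.6% of all genes), with JAG1 and HES1 higher and NOTCH4, JAG2, DLL1 and HEY1 lower. This count was 3 without parental replicate 1, 2 without Paraclone replicate 2, 3 without Paraclone replicate 3 and 4 with a replicate block. The 28.6% belongs to the fit of all libraries without such a block. In Panc89, Holoclone cells differed in 3 of the 10 (24.7% of all genes), with JAG1 higher and NOTCH3 and NRARP lower, and Paraclone cells in 4 of the 10 (19.4% of all genes), with JAG2, DLL1, HEY1 and NRARP lower. The clones of a line share the same parental libraries, so these counts are not independent of each other. Across the lines, 9 of the 10 genes differed between the Holoclone cells (65.8% of all genes), HES1 being the exception. Between the Paraclone cells 5 of the 10 did (60.7% of all genes), with NOTCH3, JAG2 and HEY1 higher and NOTCH2 and NOTCH4 lower in Panc89.

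**Figure D1:**
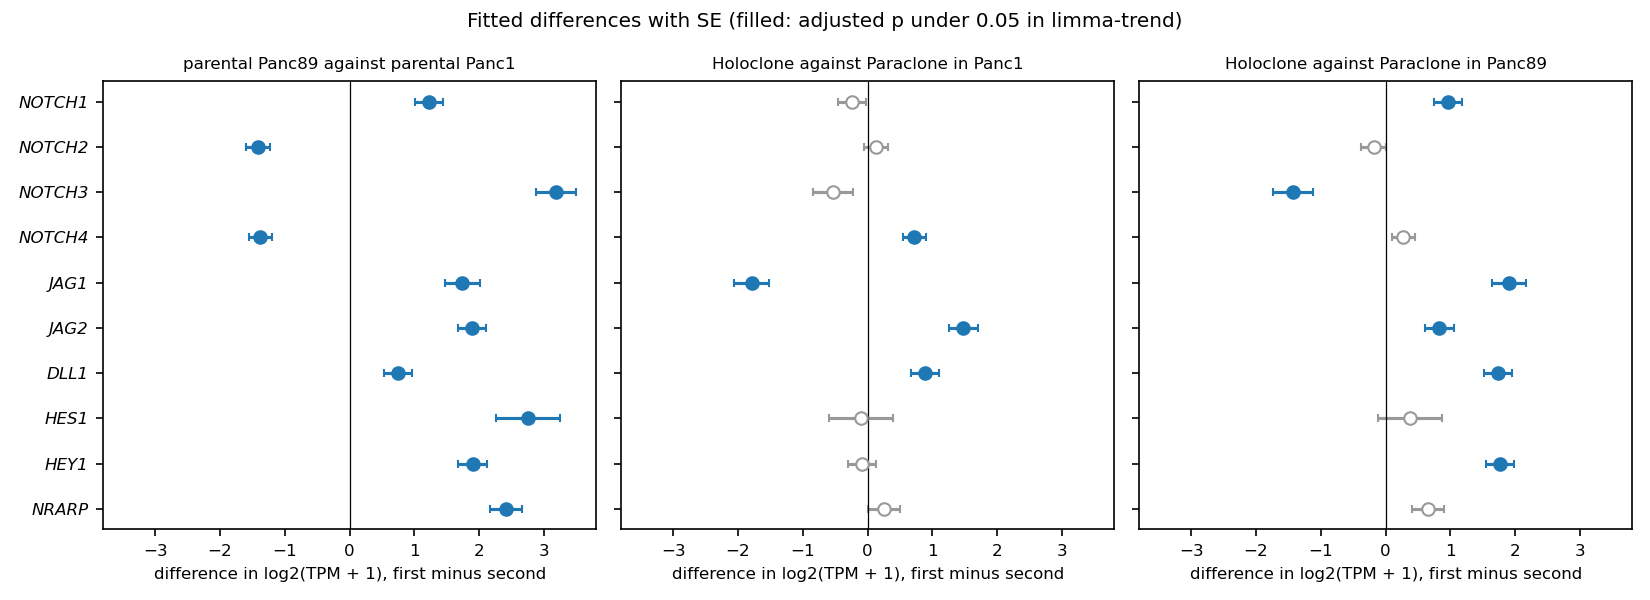
Difference in log2(TPM + 1) for each of the 10 genes (first named group minus second, x axis), with its SE from the limma-trend fit, in parental Panc89 against parental Panc1 cells and in Holoclone against Paraclone cells of each line. Filled points have an adjusted p under 0.05: all 10 in the first panel, 4 in the second and 6 in the third, with JAG1 on opposite sides of 0 in the panels of Panc1 and Panc89.

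Among the receptors, NOTCH3, on chr19:15159038-15200995 (GRCh38), stood at 3.46, 3.08 and 3.56 TPM in parental Panc1 cells and at 36.5, 41.1 and 38.2 TPM in parental Panc89 cells. Panc1 Holoclone libraries held 4.50, 1.73 and 2.36 TPM and Panc1 Paraclone libraries 2.17, 4.93 and 7.17 TPM. In Panc89, Holoclone libraries held 20.2, 16.6 and 18.2 TPM and Paraclone libraries 61.1, 34.8 and 61.5 TPM. Every Panc89 library thus lay above every Panc1 library, and within Panc89 every Holoclone library lay below all parental and Paraclone libraries. The parental lines differed by 3.18 ± 0.31 (log2 difference ± SE, adjusted p = 1.97e-07), an 11.5-fold ratio of mean TPM. Between Holoclone and Paraclone cells, NOTCH3 was lower in Holoclone cells of Panc89 (-1.42 ± 0.31, adjusted p = 0.00189). Its difference of Panc89 Holoclone to parental cells (-1.04 ± 0.31, adjusted p = 0.0218) was lost without parental replicate 2 or 3 or Holoclone replicate 2 or 3 (adjusted p up to 0.0732). In Panc1 the difference was -0.54 ± 0.31 (adjusted p = 0.192), and the difference between the lines did not pass the test (-0.89 ± 0.43, adjusted p = 0.128).

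NOTCH2 was the receptor with the highest level in every Panc1 group, at 32.2 ± 2.82 TPM in parental, 33.7 ± 5.01 TPM in Holoclone and 30.8 ± 5.83 TPM in Paraclone cells (mean ± SD, n = 3). The 9 Panc1 libraries ranged from 26.5 to 39.5 TPM and the 9 Panc89 libraries from 10.3 to 19.2 TPM, without overlap. Its log2 difference between parental Panc89 and Panc1 cells was -1.41 ± 0.19 (adjusted p = 6.57e-06). Within each line its variants overlapped, and no comparison of variants passed the test. With the NOTCH2NL genes, described next, added to it, the Panc89 clones did differ from parental cells.

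The NOTCH2 values need a caution. NOTCH2 (chr1:119911553-120100779) shares near-identical sequence with the 4 NOTCH2NL genes on the same chromosome, among which reads can be split. NOTCH2NLC, for example, stood at 3.90 ± 0.78 TPM in parental Panc1 and at 27.8 ± 4.27 TPM in Panc89 Paraclone cells. With the TPM of the NOTCH2NL genes added to NOTCH2, the parental difference shrank to -0.33 (adjusted p = 0.0309). Between Holoclone cells of the lines it went from -1.32 to 0.07 (adjusted p = 0.653), and between Paraclone cells from -1.0 to 0.50 (adjusted p = 0.00328). Against parental Panc89 cells the sum was higher by 0.52 in Holoclone (adjusted p = 0.00705) and by 0.97 in Paraclone cells (adjusted p = 6.86e-05), and lower in Holoclone than in Paraclone cells of Panc89 (-0.45, adjusted p = 0.0124). Since TPM is corrected for transcript length, such a sum is not the level that moving reads to NOTCH2 would give. How far the lower level of NOTCH2 in Panc89 clones depends on read assignment was not tested, and that level remains uncertain.

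NOTCH1 stood at 3.01, 5.56 and 2.92 TPM in parental Panc1 and at 9.90, 9.45 and 10.6 TPM in parental Panc89 cells, a log2 difference of 1.22 ± 0.22 (adjusted p = 0.000119). Panc89 Holoclone libraries held 20.3, 12.6 and 11.3 TPM and Panc89 Paraclone libraries 8.30, 6.14 and 6.31 TPM. Those groups did not overlap, and all parental Panc89 libraries lay between them. The log2 difference between Panc89 Holoclone and Paraclone cells was 0.96 ± 0.22 (adjusted p = 0.00263), and adjusted p = 0.0515 when these groups were fitted alone. In Panc1 it was -0.25 ± 0.22 (adjusted p = 0.41), and the difference between the lines was 1.20 ± 0.30 (adjusted p = 0.00618).

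NOTCH4, best known from vascular endothelium, had the lowest mean level of the receptors in all 6 groups. It stood at 3.46, 1.71 and 2.71 TPM in parental Panc1 cells, at 2.72, 3.15 and 2.20 TPM in Panc1 Holoclone cells and at 1.48, 0.94 and 1.31 TPM in Panc1 Paraclone cells. All 9 Panc89 libraries lay below every Panc1 library, between 0.19 and 0.80 TPM. Within Panc1, NOTCH4 was higher in Holoclone than in Paraclone cells by 0.72 ± 0.18 on the log2 scale (adjusted p = 0.00498) and lower in Paraclone than in parental cells (-0.67 ± 0.18, adjusted p = 0.011). The call against parental cells was lost without parental replicate 1 (adjusted p = 0.0641) or Paraclone replicate 2 (adjusted p = 0.0601). The 8 endothelial markers summed to at most 1.83 TPM in Panc1 libraries, and to between 55.7 and 69.5 TPM in parental Panc89 libraries, where NOTCH4 was low, and their part in the NOTCH4 values was not tested. NOTCH4 overlaps GPSM3 on the same strand, which was listed at 1.59 to 13.8 TPM.

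As shares of the summed receptor TPM, NOTCH2 (mean ± SD, n = 3) made up 76.6% ± 1.10 in parental Panc1 cells, 78.3% ± 5.05 in Holoclone and 74.2% ± 7.51 in Paraclone cells. Within Panc89, NOTCH3 made up the largest share of the receptor transcripts, with 63.9% ± 3.02 in parental, 40.0% ± 4.89 in Holoclone and 69.2% ± 10.2 in Paraclone cells. NOTCH1 took 31.1% ± 3.68 in Panc89 Holoclone cells, against 16.5% ± 0.99 in parental and 9.34% ± 1.27 in Paraclone cells of that line. The summed receptor level was close in the 3 Panc1 groups, at 42.0 ± 3.27, 43.0 ± 4.51 and 41.4 ± 4.33 TPM for parental, Holoclone and Paraclone cells. In Panc89 it was 60.4 ± 0.83, 46.6 ± 9.74 and 74.6 ± 12.4 TPM. With the NOTCH2NL genes added, NOTCH2 took the largest share in all 6 groups, 46.7% ± 1.09 in parental Panc89 cells included. The leading place of NOTCH3 in Panc89 thus did not hold for this sum. TPM is corrected for transcript length, so the sum does not move reads, and dependence on read assignment was not tested.

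**Figure D2:**
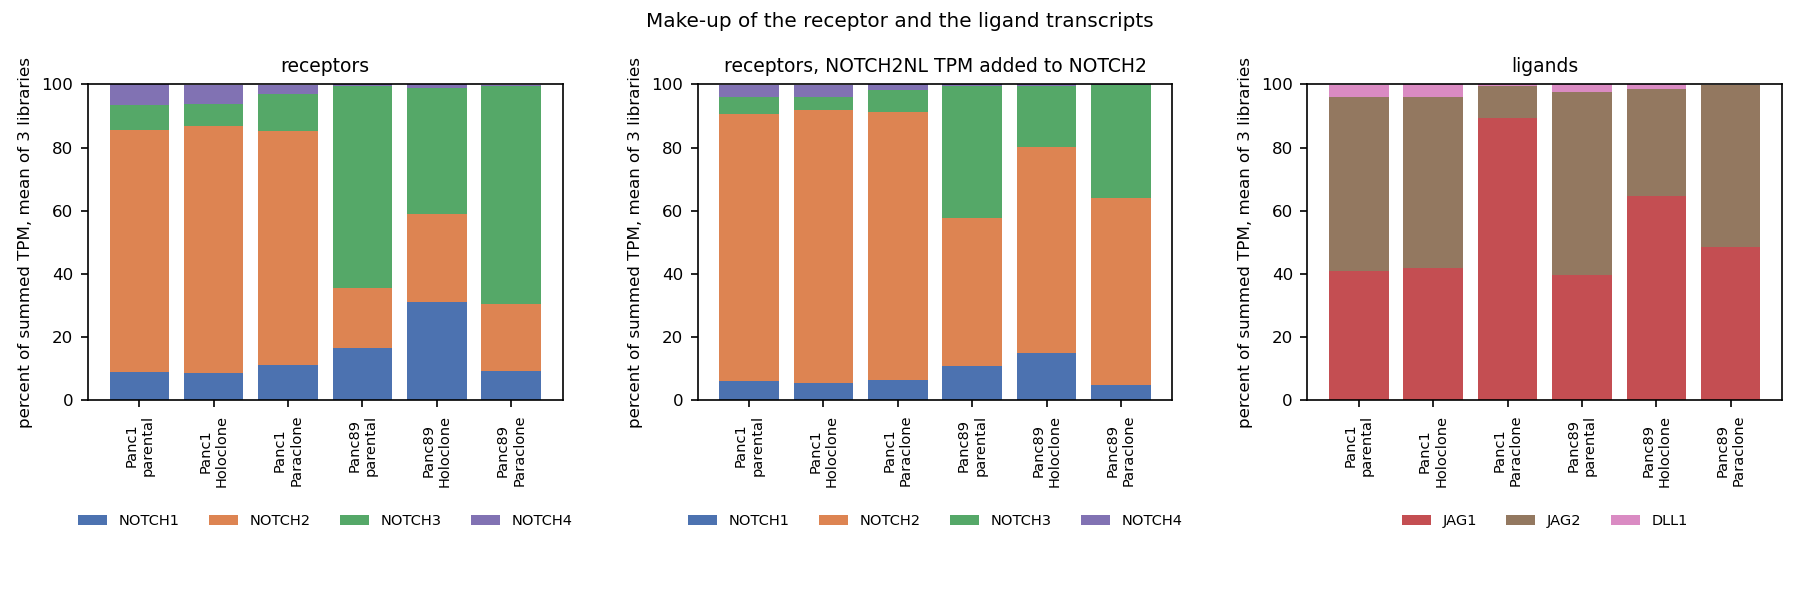
Mean share of each gene (y axis, percent of summed TPM, mean of 3 libraries) among the 4 receptors, among the receptors with the NOTCH2NL genes counted as NOTCH2, and among the 3 ligands, for the 6 groups on the x axis. NOTCH3 reaches 63.9% of the receptors in parental Panc89 cells against 8.08% in parental Panc1 cells, and JAG1 reaches 89.3% of the ligands in Panc1 Paraclone cells.

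Among the ligands, JAG1 (chr20:10637684-10673999) differed between Holoclone and Paraclone cells in opposite directions in the lines. In Panc1 it stood at 11.2, 14.5 and 8.63 TPM in parental, at 14.9, 13.8 and 12.8 TPM in Holoclone and at 56.5, 50.6 and 44.4 TPM in Paraclone libraries. In Panc89 it stood at 38.6, 34.8 and 46.7 TPM in parental, at 72.4, 158 and 174 TPM in Holoclone and at 41.5, 27.9 and 30.9 TPM in Paraclone libraries. Panc1 Paraclone cells were the high group of Panc1 and Panc89 Holoclone cells the high group of Panc89, in each case without overlap with the other variants of the line. Panc89 Holoclone replicate 1 lay under the other libraries of its group, and without it the Panc89 difference given next was 2.30 (adjusted p = 7.93e-07).

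Between Holoclone and Paraclone cells, JAG1 was lower in Holoclone cells in Panc1 (-1.79 ± 0.27, adjusted p = 8.6e-05) and higher in Panc89 (1.90 ± 0.27, adjusted p = 5.02e-05). The difference between these changes was 3.69 ± 0.38 (adjusted p = 2.35e-06), and the lowest value with any library left out was 3.46. Against parental cells, JAG1 rose by 2.07 ± 0.27 in Panc1 Paraclone (adjusted p = 3.77e-05) and by 1.64 ± 0.27 in Panc89 Holoclone cells (adjusted p = 0.00031). Panc1 Holoclone cells, at 0.28 ± 0.27 (adjusted p = 0.617), and Panc89 Paraclone cells, at -0.26 ± 0.27 (adjusted p = 0.562), did not pass the test against their parental cells. The parental lines differed by 1.74 ± 0.27 (adjusted p = 3.14e-05).

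JAG2, the second Jagged ligand, was lower in Paraclone than in Holoclone cells of either line. Panc1 Paraclone libraries held 6.06, 5.62 and 5.71 TPM, below the Holoclone libraries with 23.8, 15.8 and 15.2 TPM and the parental libraries with 12.9, 21.2 and 12.4 TPM. In Panc89 the Paraclone libraries held 36.4, 38.7 and 29.7 TPM, the Holoclone libraries 82.1, 65.1 and 45.7 TPM and the parental libraries 59.8, 55.6 and 59.7 TPM. In each line the Paraclone libraries were the low ones and overlapped with neither of the other groups. JAG2 was higher in Holoclone than in Paraclone cells by 1.48 ± 0.22 in Panc1 (adjusted p = 8.99e-05) and by 0.83 ± 0.22 in Panc89 (adjusted p = 0.00833). The latter had an adjusted p of 0.058 when the groups were fitted alone. The difference between the lines did not pass the test (-0.65 ± 0.31, adjusted p = 0.124). Between the parental lines JAG2 was higher in Panc89 by 1.89 ± 0.22 (adjusted p = 1.86e-06). Every one of the 9 Panc89 libraries lay above every Panc1 library. Paraclone cells lay below parental cells by -1.24 ± 0.22 in Panc1 (adjusted p = 0.000698) and by -0.73 ± 0.22 in Panc89 (adjusted p = 0.0296). The latter was lost without any 1 of the parental libraries or without Paraclone replicate 1 or 3 (adjusted p up to 0.122).

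The ratio of JAG1 to JAG2 TPM puts both ligands together. It was 0.75 ± 0.10 in parental and 0.78 ± 0.14 in Holoclone cells of Panc1 but 8.70 ± 0.82 in Panc1 Paraclone cells (mean ± SD, n = 3). In Panc89 it was 0.68 ± 0.09 in parental and 0.97 ± 0.22 in Paraclone cells, and 0.88, 2.43 and 3.81 in the Holoclone libraries. One Panc89 Holoclone library, replicate 1, thus lay within the range of the Paraclone libraries of its line. Summed over JAG1, JAG2 and DLL1, the level was 28.0 ± 7.47, 33.4 ± 5.70 and 56.5 ± 6.37 TPM in Panc1 (parental, Holoclone, Paraclone) and 100.7 ± 8.14, 202 ± 37.8 and 68.5 ± 8.67 TPM in Panc89 in the same order. This sum leaves out DLL3, a divergent Delta ligand given below with the other pathway genes, and is not the level of all Notch ligands.

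DLL1, a Delta-type ligand, was present at low levels, between 0.01 and 4.02 TPM. Parental Panc89 libraries held 1.96, 2.40 and 2.66 TPM, Holoclone libraries 4.02, 2.60 and 2.09 TPM and Paraclone libraries 0.01, 0.13 and 0.34 TPM. In Panc1 the parental libraries held 0.66, 0.83 and 1.59 TPM, the Holoclone libraries 1.13, 1.84 and 0.88 TPM and the Paraclone libraries 0.34, 0.19 and 0.14 TPM. Paraclone libraries were the lowest of either line, and the Paraclone groups of the lines overlapped with each other. DLL1 was higher in Holoclone than in Paraclone cells by 0.88 ± 0.21 in Panc1 (adjusted p = 0.0039) and by 1.73 ± 0.21 in Panc89 (adjusted p = 1.37e-05). Against parental cells, Paraclone cells were lower by -1.53 ± 0.21 in Panc89 (adjusted p = 0.00011) and by -0.71 ± 0.21 in Panc1 (adjusted p = 0.0208), the latter lost without parental replicate 3 or Paraclone replicate 2 or 3 (adjusted p up to 0.104). With values near or below 1 TPM, differences on the log2(TPM + 1) scale understate the ratio. DLL1 lies opposite in strand to FAM120B, listed at 9.0 to 28.3 TPM, and whether strand was used in the quantification is not given in the sources used here. The difference between the lines, 0.84 ± 0.30 (adjusted p = 0.0393), was lost in 15 of 21 alternatives. Its adjusted p lay between 0.018 and 0.102 over them and exceeded 0.05 when any 1 of 9 single libraries was left out.

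Of the target genes, HES1, a textbook target bound by RBPJ, and NRARP both had their highest mean TPM in parental Panc89 cells. The stretches just before the transcription start of these genes are shown, HEY1 having no entry in the RefSeq promoter table. Each holds the 250 bases upstream of the start from RefSeq on GRCh38.p14, read 5′ to 3′ on the strand of the gene, at chr3:194135898-194136147 (plus strand) for HES1 and chr9:137302272-137302521 (minus strand) for NRARP. Capitals mark TGGGAA, the core of the sequence that RBPJ binds.
HES1: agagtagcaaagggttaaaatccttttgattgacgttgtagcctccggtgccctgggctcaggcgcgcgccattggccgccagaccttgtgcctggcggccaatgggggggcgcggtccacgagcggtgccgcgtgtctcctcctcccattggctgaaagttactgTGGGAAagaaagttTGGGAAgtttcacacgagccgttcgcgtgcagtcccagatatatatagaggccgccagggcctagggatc
NRARP: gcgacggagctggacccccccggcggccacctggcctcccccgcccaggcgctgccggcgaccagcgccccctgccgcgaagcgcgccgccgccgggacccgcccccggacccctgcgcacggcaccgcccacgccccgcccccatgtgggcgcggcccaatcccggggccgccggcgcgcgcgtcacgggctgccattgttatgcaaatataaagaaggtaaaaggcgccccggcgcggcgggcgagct

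Searched on both strands, TGGGAA was found 2 times before HES1, beginning 84 and 70 bases upstream of the start and both times on the strand of the gene. It was found in none of the windows of the other 7 genes in the RefSeq promoter table, which holds 8 of the 10 genes. Among all 35116 promoter windows of this length, 20.8% held TGGGAA at least once and 1.70% held it at least 2 times on one strand. CACNAG, the N-box that HES proteins bind, was found 3 times before HES1 and 1 time each before NOTCH3 and NOTCH4, against 32% of all windows with at least 1 match. These matches describe the letters of the windows only.

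HES1, a repressor that limits differentiation, had the highest mean TPM of the 10 genes in all 6 groups. Parental Panc89 libraries held 382, 285 and 407 TPM, Holoclone libraries 240.2, 247 and 197 TPM and Paraclone libraries 145, 172 and 212 TPM. In Panc1, parental libraries held 26.6, 29.7 and 172 TPM, Holoclone libraries 111, 145 and 131 TPM and Paraclone libraries 88.6, 159 and 184 TPM. Parental Panc89 cells were the high group, without overlap with any other. In parental Panc1 cells, replicate 3 lay far above replicates 1 and 2 but within the range of the Panc1 clone libraries. Replicates 1 and 2 lay below every other library of the series, and the mean of parental Panc1 cells was 76.1 ± 83.1 TPM. The place of HES1 above NOTCH2 in parental Panc1 cells rested on replicate 3, since NOTCH2 was higher than HES1 in replicates 1 (30.3 TPM) and 2 (35.4 TPM).

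The parental lines differed in HES1 by 2.75 ± 0.49 (adjusted p = 0.000143), and by 3.61 without Panc1 parental replicate 3 (adjusted p = 2.11e-08). Over all alternatives this difference lay between 2.28 and 3.61, with an adjusted p of at most 0.013. Panc1 Paraclone cells were higher than parental cells by 1.39 ± 0.49 (adjusted p = 0.0458). This call was lost without parental replicate 1 or 2 or Paraclone replicate 2 or 3 (adjusted p up to 0.219), and the difference was 2.25 without parental replicate 3. In Panc1 Holoclone cells the difference to parental cells was 1.29 ± 0.49 (adjusted p = 0.117), and 2.15 without parental replicate 3 (adjusted p = 0.000145). It lay between 0.83 and 2.15 over all alternatives, with an adjusted p of up to 0.395. HES1 in Holoclone against Paraclone cells stood at -0.10 ± 0.49 in Panc1 (adjusted p = 0.923) and at 0.38 ± 0.49 in Panc89 (adjusted p = 0.601). Between the clones of the lines it did not pass the test either, at 0.82 ± 0.49 for Holoclone (adjusted p = 0.158) and 0.34 ± 0.49 for Paraclone cells (adjusted p = 0.571). The immediate-early genes EGR1 and FOSB were also lower in parental Panc1 replicates 1 and 2 than in every other library of the series. EGR1 held 19.4, 2.71 and 375 TPM and FOSB 3.06, 0.89 and 44.9 TPM in parental Panc1 replicates 1, 2 and 3. Their part in the HES1 values was not tested.

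**Figure D3:**
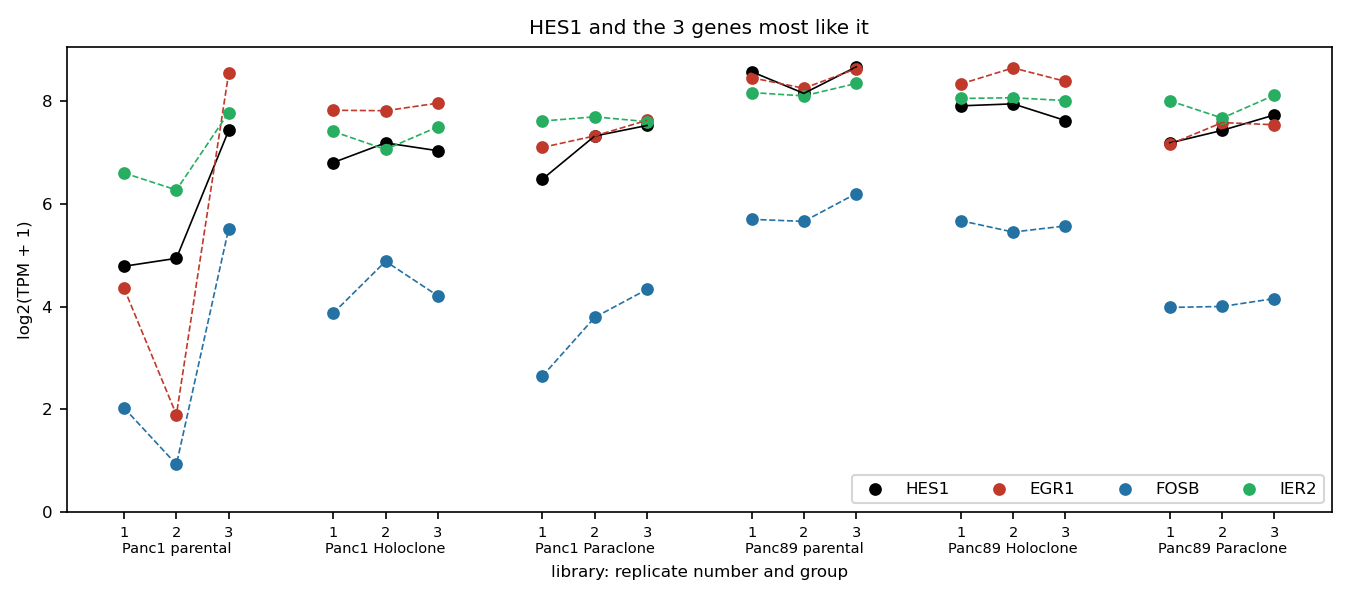
Level of HES1 and of the 3 genes whose pattern was most like it, EGR1, FOSB and IER2, in each of the 18 libraries (y axis, log2(TPM + 1), x axis, replicate number within each group). In parental Panc1 cells all 4 genes are higher in replicate 3 than in replicates 1 and 2, for HES1 172 against 26.6 and 29.7 TPM.

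HEY1, a related repressor, followed the variants of Panc89. It stood at 15.1, 14.1 and 15.1 TPM in parental Panc89, at 20.9, 19.5 and 17.2 TPM in Holoclone and at 7.12, 2.83 and 5.69 TPM in Paraclone libraries. In Panc1 the parental libraries held 3.8, 2.45 and 3.57 TPM, the Holoclone libraries 1.60, 1.83 and 1.38 TPM and the Paraclone libraries 1.34, 1.94 and 2.04 TPM. The 3 variants of Panc89 did not overlap, while Holoclone and Paraclone libraries of Panc1 did. HEY1 was higher in Panc89 Holoclone than Paraclone cells by 1.76 ± 0.22 (adjusted p = 1.64e-05) but not in Panc1 (-0.09 ± 0.22, adjusted p = 0.821), and the difference between the lines was 1.85 ± 0.31 (adjusted p = 0.000286). Panc89 Paraclone cells lay below their parental cells by -1.41 ± 0.22 (adjusted p = 0.000294). The lower level in Panc1 Paraclone against parental cells (-0.62 ± 0.22, adjusted p = 0.0472) was lost in 12 of 16 alternatives. These included leaving out parental replicate 1 or 3 or any of the 3 Paraclone libraries (adjusted p of 0.064 to 0.157). Between the parental lines HEY1 was higher in Panc89 by 1.90 ± 0.22 (adjusted p = 1.62e-06).

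NRARP, an inhibitor induced by the pathway, was highest in parental Panc89 cells, at 110.3, 80.6 and 95.9 TPM. Panc89 Holoclone libraries held 62.0, 37.4 and 32.1 TPM and Paraclone libraries 26.8, 21.3 and 32.3 TPM, all below the parental libraries. The 9 Panc1 libraries ranged from 13.7 to 25.2 TPM with overlap among the variants. NRARP was lower than in parental Panc89 cells by -1.15 ± 0.25 in Holoclone (adjusted p = 0.00287) and by -1.80 ± 0.25 in Paraclone cells (adjusted p = 0.000102). Between Panc89 Holoclone and Paraclone cells it did not pass the test (0.65 ± 0.25, adjusted p = 0.0517), but did without Holoclone replicate 3 (0.84, adjusted p = 0.0247) or Paraclone replicate 3 (0.79, adjusted p = 0.044). The parental lines differed by 2.41 ± 0.25 (adjusted p = 4.13e-07), a 5.39-fold ratio of mean TPM. Between the Paraclone cells of the lines the difference was 0.54 ± 0.25 (adjusted p = 0.0709).

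**Figure D4:**
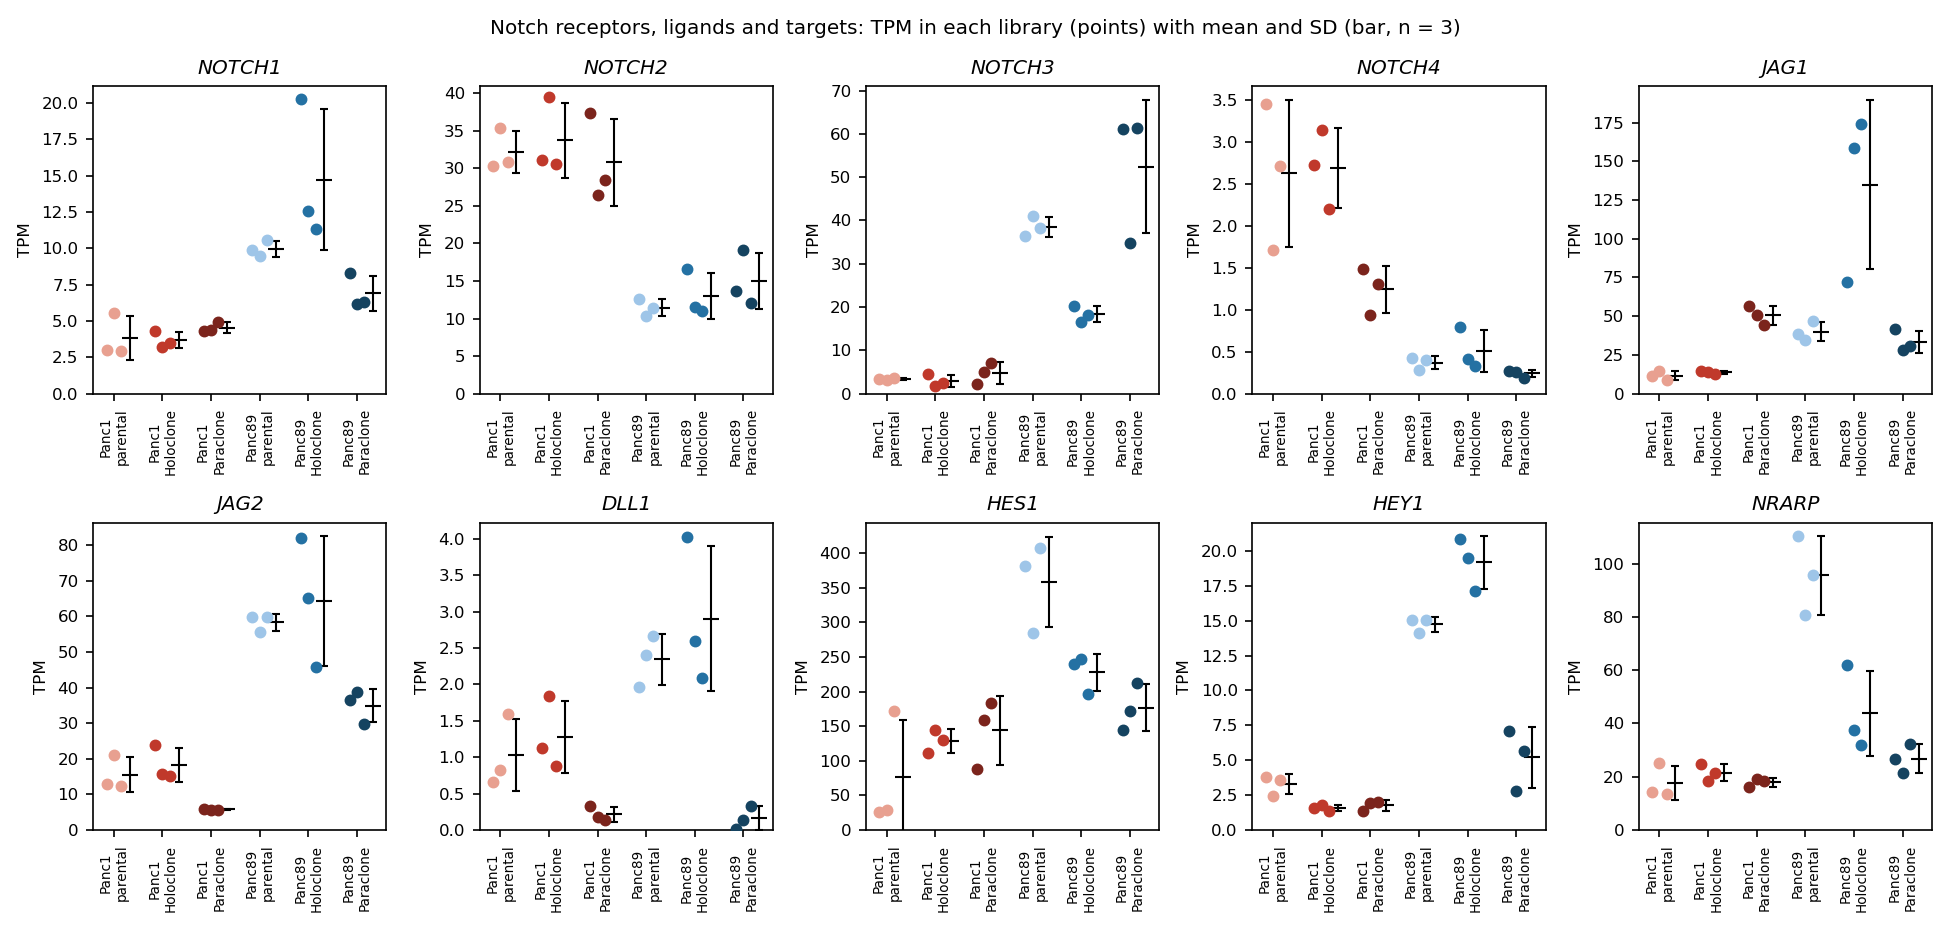
TPM of each of the 10 genes (y axis, linear, each panel with its own scale from 0) in every library of the 6 groups (points), with the mean and SD over 3 libraries as a bar cut at 0. JAG1 is highest in Panc1 Paraclone cells within Panc1 and in Panc89 Holoclone cells within Panc89, and NOTCH3 is at least 16.6 TPM in every Panc89 library and at most 7.17 TPM in every Panc1 library.

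Across all libraries, 5 of the 10 genes separated the lines completely, with all 9 Panc89 libraries above or below all 9 Panc1 libraries, beside 33.1% of all genes tested. They were NOTCH1, NOTCH2, NOTCH3, NOTCH4 and JAG2. With the NOTCH2NL genes added, NOTCH2 no longer separated the lines, ranging from 52.5 to 66.6 TPM in Panc1 and from 41.0 to 94.3 TPM in Panc89. JAG1, DLL1 and the 3 targets overlapped between the lines, and for each of these 5 genes the lowest Panc89 library was a Paraclone library.

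Beyond the 10 genes, 56 further genes of the pathway were listed by role, of which 52 passed the filter (DLL4, DLK1, HES5 and HEY2 did not). Between the parental lines 16 were higher in Panc89, 16 were lower and 20 did not pass, with a median log2 difference of -0.08 beside -0.18 for all genes. Their share of calls, 61.5%, was near the 66.0% of all genes. Under median-of-ratios scaling, which raised the median of all genes by 0.20, the split was 21 higher to 14 lower, and 51.8% of all called genes were higher in place of 41.6%. DLL3, a divergent Delta ligand, stood at 100.4 ± 16.4 TPM in parental Panc1 and at 0.19 ± 0.08 TPM in parental Panc89 cells (-6.40 ± 0.19, adjusted p = 1.57e-13). The ubiquitin ligase DTX3 (-4.62 ± 0.26, adjusted p = 2.79e-10) and MFNG, a Fringe enzyme that adds sugars to Notch receptors (-2.49 ± 0.26, adjusted p = 5.27e-07), were also lower in Panc89. Higher in Panc89 were NEURL1, which promotes endocytosis of ligands (4.78 ± 0.38, adjusted p = 1.83e-08), DTX4, a ubiquitin ligase (4.73 ± 0.18, adjusted p = 3.62e-12), and MFAP5, a matrix protein known to bind Jagged1 (2.33 ± 0.31, adjusted p = 7.53e-06). Of the 9 genes of receptor cleavage, 2 were higher and 2 lower.

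In Holoclone against Paraclone cells of Panc1, 18 of the 52 were higher and 6 lower (46.2% called, beside 37.3% of all genes, 27.4% higher and 9.97% lower). The split depended on the scaling: it was 9 higher to 8 lower under upper quartile and 9 to 9 under median-of-ratios scaling, where the share of all called genes that were higher went from 73.3% to 47.7%. For the 10 core genes the split stayed at 3 higher and 1 lower under both. HEYL (1.78 ± 0.20, adjusted p = 6.15e-06), DTX3 (1.48 ± 0.26, adjusted p = 0.000313) and DLK2 (1.26 ± 0.17, adjusted p = 3e-05) were higher in Holoclone cells. Higher in Paraclone cells were MFNG (-1.38 ± 0.26, adjusted p = 0.000683), the corepressor TLE1 (-1.22 ± 0.11, adjusted p = 7.48e-07) and the matrix protein MFAP2 (-1.16 ± 0.12, adjusted p = 3.35e-06). MFAP2 held 111 ± 12.8 TPM in Panc1 Paraclone and 49.1 ± 5.47 TPM in Holoclone cells.

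In Panc89, 13 of the 52 were higher and 8 lower in Holoclone cells (40.4% called, beside 35.7% of all genes, 22.4% higher and 13.3% lower), and 11 to 9 under either other scaling, while the share of all called genes that were higher went from 62.8% to 52.5% and 49.3%. DLK2, a Delta-like protein, stood at 44.7 ± 8.97 TPM in Holoclone and 7.10 ± 1.01 TPM in Paraclone cells (2.49 ± 0.17, adjusted p = 2.39e-08). HES7 (1.80 ± 0.23, adjusted p = 2.02e-05) and the ligand endocytosis gene NEURL1B (1.62 ± 0.30, adjusted p = 0.000524) were also higher. MFAP5 held 80.4 ± 8.46 TPM in Paraclone and 1.54 ± 1.27 TPM in Holoclone cells (-5.11 ± 0.31, adjusted p = 7.9e-09), and NEURL1 (-2.97 ± 0.38, adjusted p = 1.87e-05) and DTX3 (-1.80 ± 0.26, adjusted p = 5.8e-05) were lower in Holoclone cells as well. The DNA-binding partner RBPJ had group means from 18.1 to 27.2 TPM and was lower in parental Panc89 than parental Panc1 cells by -0.31 ± 0.11 (adjusted p = 0.0218). This RBPJ call was lost in 7 of 16 alternatives, among them both other scalings and leaving out Panc1 parental replicate 1 (adjusted p = 0.0817) or Panc89 parental replicate 2 (adjusted p = 0.126). The RBPJ difference between Holoclone and Paraclone cells was 0.15 ± 0.11 in Panc1 (adjusted p = 0.315), below 0 under both other scalings, and 0.19 ± 0.11 in Panc89 (adjusted p = 0.207).

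For each of the 10 genes the pattern most like it was sought among 10907 genes, after removing the mean of each line. The measure was Pearson's r over the 18 libraries, which share lines and clones, and it is given as a description. NRARP was most like PDE4A (r = 0.952), DLL1 most like FBLN1 (0.943), JAG2 most like PMP22 (0.942), NOTCH3 most like ACSS2 (0.936), HEY1 most like IARS1 (0.935) and JAG1 most like PISD (0.922). NOTCH4 was most like TTN-AS1 (0.906), NOTCH1 most like B4GALNT1 (0.885) and NOTCH2 most like RP2 (0.872). HES1 was most like EGR1 (0.879), FOSB (0.876) and IER2 (0.856), 3 genes known to be induced within minutes of stimulation. For HES1, EGR1, FOSB and IER2, replicates differed most in parental Panc1 cells. There the SD on the log2 scale was 1.49, 3.37, 2.40 and 0.79 in that order. In any other group it was at most 0.55, 0.27, 0.86 and 0.23. How far the likeness to HES1 rests on the parental Panc1 libraries was not tested.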

How the data were processed

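RNA from 18 cultures of the cell lines Panc1 and Panc89 was sequenced as stranded, paired-end mRNA libraries. The authors quantified transcripts with kallisto 0.46.1 against the Ensembl GRCh38 transcriptome and deposited scaled TPM per gene symbol as log2(TPM + 1). TPM was recovered from these deposited log2 values. They are not counts, so the count model of the study was replaced by limma-trend (limma 3.58.1 in R 4.3.3), and no depth, counting interval or detection floor is given. TPM summed to between 985339 and 988066 per library over all 40266 symbols. The 16093 genes that reached 1 TPM in 3 or more libraries were fitted with 1 mean for each of the 6 groups over all 18 libraries. P-values were adjusted over all genes tested by the Benjamini-Hochberg method, with a threshold of 0.05. SEs are those of the fit and SDs are over 3 libraries. Replicates are 3 passages of 1 culture or clone, so p-values measure the spread between passages. The script was tested on simulated data.

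The 10 genes, the pathway and marker lists were chosen with earlier results of these data known. Other pathway genes were named by rule, up to 3 higher and 3 lower per comparison with the largest change and a mean of 1 TPM or more where higher, and are given for the parental and the Holoclone against Paraclone comparisons. RBPJ is given outside this rule. The most alike genes had the highest Pearson's r after removing each line's mean, among genes with a group mean of at least 10 TPM. Other pseudocounts, filters, scalings, call rules, fits, a replicate block and left-out libraries were tried. Gene positions are from GENCODE 44 and promoter windows from RefSeq. Tables and figures were made with Python 3.11.15, pandas 2.3.3, numpy 2.4.6 and matplotlib 3.10.9.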

Additional observations from a re-analysis of the deposited data

Results flagged for a closer look

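For 4 of the 10 genes, the difference between Holoclone and Paraclone cells itself differed between the lines by the interaction term of the limma-trend fit (adjusted p under 0.05, as for 35.1% of all genes), each value being the Panc89 change minus the Panc1 change on the log2 scale. It was 3.69 for JAG1 (adjusted p = 2.35e-06), which was higher in Paraclone cells of Panc1 and in Holoclone cells of Panc89. For HEY1 it was 1.85 (adjusted p = 0.000286) and for NOTCH1 1.20 (adjusted p = 0.00618), both of which were higher in Holoclone cells of Panc89 and did not pass the test in Panc1. For DLL1 it was 0.84 (adjusted p = 0.0393), with higher levels in Holoclone cells of both lines, and this call was lost in 15 of 21 alternatives. Each line has 1 Holoclone and 1 Paraclone clone, so a difference between lines and a difference between clones cannot be told apart.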

How the results depend on the processing

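Of 51 called differences of the 10 genes, 34 kept their call and direction in every alternative run, and 2, both of NOTCH2, reversed. The filter of 5 TPM left NOTCH4 and DLL1 untested, so their calls could not be lost under it. How often the calls of all genes were kept was not computed, so 34 of 51 cannot be set against them. Of 49 differences that were not called, 15 gained a call in at least 1 alternative. The 18 differences of other pathway genes named for their size were never lost or reversed. Their choice as the largest called changes of the same fit made this likely, and it does not speak for the other pathway genes. Without counts, depth cannot be weighed, and genes near 1 TPM such as DLL1 and NOTCH4 are the least certain. The cause of the changes listed here was not tested.

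With NOTCH2NL added to NOTCH2, chosen for the fits after seeing the data, NOTCH2 went to 0.069 between the Holoclone cells and 0.50 between the Paraclone cells of the lines, and to -0.020 in Holoclone against Paraclone cells of Panc1. Its share of receptor TPM became 84.7%, 86.5% and 85.0% in Panc1 (parental, Holoclone, Paraclone) and 46.7%, 65.1% and 59.3% in Panc89 in that order. That of NOTCH3 became 5.26% in parental Panc1 and 42.0%, 19.3% and 35.7% in parental, Holoclone and Paraclone Panc89 cells. In Holoclone against Paraclone cells of Panc1, NOTCH2 was -0.11 under upper quartile and -0.13 under median-of-ratios scaling, and NRARP -0.014 under the latter. There RBPJ, not called, was -0.0851 and -0.111 under these scalings. Also not called, NOTCH2 in Panc1 Paraclone against parental cells became 0.11 under upper quartile and 0.151 under median-of-ratios scaling, and 0.14 with NOTCH2NL added. JAG2 in Panc89 Holoclone against parental cells became -0.0071 and -0.0040 under the same scalings, and NOTCH1 in Panc1 Holoclone against parental cells 0.0016 with a pseudocount of 0.1.

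With an absolute log2 difference over 1 also required, other pathway genes called were 17 between parental lines, 8 in Holoclone against Paraclone cells of Panc1 and 11 in those of Panc89. The 10 genes then had 2 calls in Holoclone against Paraclone cells of Panc1, as with the filter of 5 TPM, which left NOTCH4 and DLL1 untested. Panc1 Paraclone against parental cells then had 3 calls, 3 with the groups fitted alone, and 2 at an adjusted p under 0.01. Fitted alone, the Paraclone cells of the lines differed in 8 genes. With a pseudocount of 0.1, Panc1 Holoclone and parental cells differed in 1. The share of all genes called under each of these settings is not given here. The shares given earlier belong to the main settings, so these counts cannot be set against them.

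Leaving out single libraries gave 0 to 1 calls in Panc1 Holoclone and 2 to 5 in Panc1 Paraclone against parental cells, again without the share of all genes. HES1 in Holoclone against Paraclone cells of Panc1 ranged from -0.42 to 0.11, DLL1 between the Paraclone cells of the lines from -0.185 to 0.015, and NOTCH2 in Panc89 Holoclone against parental cells from -0.0185 to 0.26. JAG2 there ranged from -0.0948 to 0.321. In Panc1 Holoclone against parental cells, NOTCH1 ranged from -0.136 to 0.237, NOTCH2 from -0.0567 to 0.128 and NOTCH4 from -0.148 to 0.211. In Panc1 Paraclone against parental cells, NOTCH2 ranged from -0.217 to 0.0246, NOTCH3 from -0.0096 to 0.673 and NRARP from -0.0855 to 0.33.

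The labels do not say whether same-numbered libraries were handled together. Deviations of same-numbered libraries from their group means correlated between -0.318 and 0.19 over 18 pairs. Libraries of unlike number were not compared in this way, so these values cannot settle whether the samples are paired. With the replicate block, DLL1 (adjusted p = 0.0555) and HEY1 (adjusted p = 0.0665) lost their call in Panc1 Paraclone against parental cells, leaving 4, and DLL1 (adjusted p = 0.0854) lost it in the difference between lines, leaving 3. The share of all genes called with the block is not given here, so these counts cannot be set against the shares of the main settings. The block changed no other call of the 10 genes.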
